A study of Mus musculus with 16 samples.

Results

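The RNA that came down with an antibody against MYF5 was compared between 2 states of the mouse myoblast line C2C12, which divides in rich serum and fuses into muscle fibres when serum is withdrawn. Cytoplasmic extracts were made from cells in growth medium (GM, 10% fetal bovine serum) or in differentiation medium (DM, 2% horse serum), and each was incubated for 2 h with protein A beads carrying anti-MYF5 or control IgG. Of the series' 16 Illumina mouse bead arrays, 8 make up this comparison, 4 of GM with anti-MYF5 and 4 of DM with anti-MYF5, and the 8 arrays with IgG serve as the matched control precipitates. No genotype, transgene or drug separates the groups, and the labels do not say whether the 4 replicates of a group were separate cultures, so the p-values measure the spread between these arrays. Input RNA of the extracts was not analysed here, so a change in the RNA of the extract and a change in what the antibody recovered cannot be told apart within the MYF5 arrays alone.

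Of 25697 probes on the array, 13086 (50.9%) were detected (deposited detection p-value under 0.05) on at least 4 of the 8 MYF5 arrays and were tested; they cover 8934 genes. A probe counted as higher or lower in DM where its limma adjusted p was under 0.05. Levels below are normalized log2 signals, so that a difference of 1 is a 2-fold change, and changes are DM minus GM. A gene stands by its brightest tested probe.

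MYF5 belongs, with MYOD, myogenin and MRF4, to the myogenic basic helix-loop-helix factors. It marks committed myoblasts, and these factors bind E-box DNA together with E proteins to switch on the muscle genes. The title of the series names binding of RNA by MYF5 and the translation of Ccnd1, the transcript of cyclin D1, the G1 cyclin that serum keeps high in dividing myoblasts and that falls as they differentiate. When myoblasts leave the cell cycle, Rb family proteins silence E2F target genes for DNA synthesis and the DREAM complex silences the genes of G2 and mitosis, while myogenin and MEF2 factors turn on the contractile apparatus.

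The promoters of the genes at both ends of the comparison are shown because short motifs near the start were more frequent in some groups of genes that moved together than in all windows. The motif is present in only part of each group, as the shares given with the motif counts below show. The windows are from RefSeq on GRCm38.p6, run from 250 bases before the gene start to 50 after it, and are written 5′ to 3′ along the gene. Capitals mark, on either strand, CAGCTG (the E-box core preferred by MYOD and myogenin) in Mylpf and Acta1, the E2F motif TTTGGCGC in Mcm5, and TTTGAA (the cell cycle genes homology region, CHR) and CCAAT (the box bound by NF-Y) in Cdca3, Cdc20 and H2ac7.
Mylpf, chr7:127211358-127211657, plus strand: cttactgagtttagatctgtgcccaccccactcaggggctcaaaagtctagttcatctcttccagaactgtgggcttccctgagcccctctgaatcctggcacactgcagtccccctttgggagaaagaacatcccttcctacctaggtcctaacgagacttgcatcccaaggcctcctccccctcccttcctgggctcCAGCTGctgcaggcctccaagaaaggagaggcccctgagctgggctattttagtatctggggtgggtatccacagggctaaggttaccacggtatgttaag
Acta1, chr8:123894726-123895025, minus strand: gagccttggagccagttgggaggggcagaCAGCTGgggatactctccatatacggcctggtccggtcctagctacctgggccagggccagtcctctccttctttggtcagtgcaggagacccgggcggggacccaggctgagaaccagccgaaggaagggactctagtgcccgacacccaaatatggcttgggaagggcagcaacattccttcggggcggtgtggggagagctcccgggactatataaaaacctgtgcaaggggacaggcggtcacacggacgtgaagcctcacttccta
Mcm5, chr8:75109259-75109558, plus strand: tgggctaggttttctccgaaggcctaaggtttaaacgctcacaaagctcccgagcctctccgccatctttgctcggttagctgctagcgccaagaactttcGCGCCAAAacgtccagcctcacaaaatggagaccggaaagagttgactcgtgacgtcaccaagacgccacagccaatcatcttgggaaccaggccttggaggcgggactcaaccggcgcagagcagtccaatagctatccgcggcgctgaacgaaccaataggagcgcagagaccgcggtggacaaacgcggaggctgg
Cdca3, chr6:124829926-124830225, plus strand: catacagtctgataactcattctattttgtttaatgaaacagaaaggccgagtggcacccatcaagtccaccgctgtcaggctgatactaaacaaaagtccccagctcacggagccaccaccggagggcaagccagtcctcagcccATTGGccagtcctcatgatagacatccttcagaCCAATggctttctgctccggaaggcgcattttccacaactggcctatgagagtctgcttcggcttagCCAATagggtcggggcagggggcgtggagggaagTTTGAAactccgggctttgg
Cdc20, chr4:118437294-118437593, minus strand: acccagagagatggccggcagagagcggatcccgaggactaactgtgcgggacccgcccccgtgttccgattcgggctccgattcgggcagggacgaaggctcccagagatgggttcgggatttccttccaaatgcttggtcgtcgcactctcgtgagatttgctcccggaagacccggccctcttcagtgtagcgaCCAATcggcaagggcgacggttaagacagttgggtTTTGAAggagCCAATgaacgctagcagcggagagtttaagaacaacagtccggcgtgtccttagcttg
H2ac7, chr13:23574131-23574430, plus strand: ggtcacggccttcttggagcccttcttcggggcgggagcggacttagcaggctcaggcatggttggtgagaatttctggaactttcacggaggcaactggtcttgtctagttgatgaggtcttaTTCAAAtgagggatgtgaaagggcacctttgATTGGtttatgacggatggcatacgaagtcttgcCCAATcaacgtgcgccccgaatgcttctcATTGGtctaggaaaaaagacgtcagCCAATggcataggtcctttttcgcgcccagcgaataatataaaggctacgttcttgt
Mylpf, the fast muscle regulatory light chain, has its CAGCTG 51 bases before the start, and Acta1, skeletal alpha-actin, has it 221 bases before. Mcm5 has its E2F motif on the opposite strand, 149 bases before the start. Cdca3 has CCAAT boxes 104, 71 and 4 bases before the start and TTTGAA 30 bases after it. Cdc20, the activator of the anaphase-promoting complex, has TTTGAA 18 bases before the start, between CCAAT boxes 53 and 8 bases before. Cdc20 was chosen after its values were seen. H2ac7, a replication-dependent H2A gene, holds 4 CCAAT boxes and 1 TTTGAA.

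The arrays of each group were closely alike. Pairs of arrays correlated at 0.984 to 0.994 within GM, at 0.989 to 0.996 within DM and at 0.863 to 0.892 between the media, across the probes of each pair. The mean deposited signal was 377.9 to 581.4 on the 8 arrays, and 46.4% to 50.9% of probes were detected, which with 4 arrays a group sets the precision. Of 8 measured markers that define myoblasts, 6 were detected on all 8 arrays, among them Myod1, Des (desmin) and Itga7. Pax7 was detected on none and Myf5 itself on 1. The summed signal of those 8 markers was 8201 to 13071 in GM and 20687 to 27196 in DM. Markers of other cell types were often undetected: 5 of 7 adipocyte markers, 4 of 7 endothelial markers, 3 of 4 blood markers, 3 of 7 bone and cartilage markers and 7 of 8 markers of neuron, liver and epithelium were detected on no array. Among the others, the blood marker Hba-a1 was detected on all 4 GM arrays and no DM array. Of the bone markers, Sp7 was detected on 4 GM arrays and 1 DM array, and Bglap on 0 GM and 4 DM arrays. Their summed signals ran from 1287 to 1905 in GM and 592 to 726 in DM for adipocyte markers, where Pparg was detected on all 8 arrays, from 441.5 to 482.5 and 412.0 to 482.4 for endothelium, from 336.9 to 434.5 and 224.9 to 249.0 for blood, from 479.0 to 535.3 and 413.1 to 474.7 for bone and cartilage, and from 518.4 to 562.0 and 459.8 to 515.1 for the last. The 5 smooth muscle markers summed to 664.3 to 915.0 in GM and 1996 to 3277 in DM, with Myh11 and Cnn1 detected on no array. The part of these cell types in any result was not tested.

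Array 4 of each medium stood apart in the muscle genes. Of 103 muscle genes called higher in DM, the GM array numbered 4 held the highest GM value for 42, and the DM array numbered 4 held the highest DM value for 64. Of 107 cell cycle genes called lower, the GM array numbered 4 was the lowest GM array for 58. The GM control array numbered 4 stood apart as well. With IgG in GM the mean level of thin filament genes was 7.59 on array 4 and 6.74, 6.89 and 6.76 on arrays 1 to 3. With MYF5 in GM it was 6.82 against 6.38, 6.42 and 6.30. On the DM arrays with IgG it was 12.28, 12.23, 12.26 and 12.27. The GM means with IgG used below include that array. The 5 probes for Actb, cytoplasmic beta-actin, moved by between -1.25 and 0.62, a spread as large as many of the smaller changes below. The probes with positive changes, 0.57 (SE 0.53) and 0.62 (SE 0.52), were not called, so part of that spread is imprecision. The called probes were all lower, at -0.70 (SE 0.28), -0.75 (SE 0.10) and -1.25 (SE 0.21). The part of this spread in the results was not tested.

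Differentiation changed the MYF5 precipitate broadly. Of the 13086 probes, 3742 (28.6%) were higher in DM and 4532 (34.6%) were lower, 8274 (63.2%) in all, and 8690 had an unadjusted p under 0.05. In these extracts of whole cultures, fewer cells of a type and less RNA per cell cannot be told apart. At least a 2-fold change was called for 1403 probes (10.7%) upward and 1334 (10.2%) downward. By gene, 2661 (29.8%) were higher and 3019 (33.8%) lower, 1003 (11.2%) were at least 2-fold higher and 919 (10.3%) at least 2-fold lower, and the values of the 4 GM and 4 DM arrays did not overlap for 5069 genes (56.7%). The median change over all tested genes was -0.06. The shares of all genes called higher (29.8%) and lower (33.8%) are the background for the counts within gene groups below, and a share of a list near them says nothing about that list. A further split was between probes on and off: 530 tested probes were detected on all 4 DM arrays and no GM array, and 162 on all 4 GM arrays and no DM array.

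**Figure D1:**
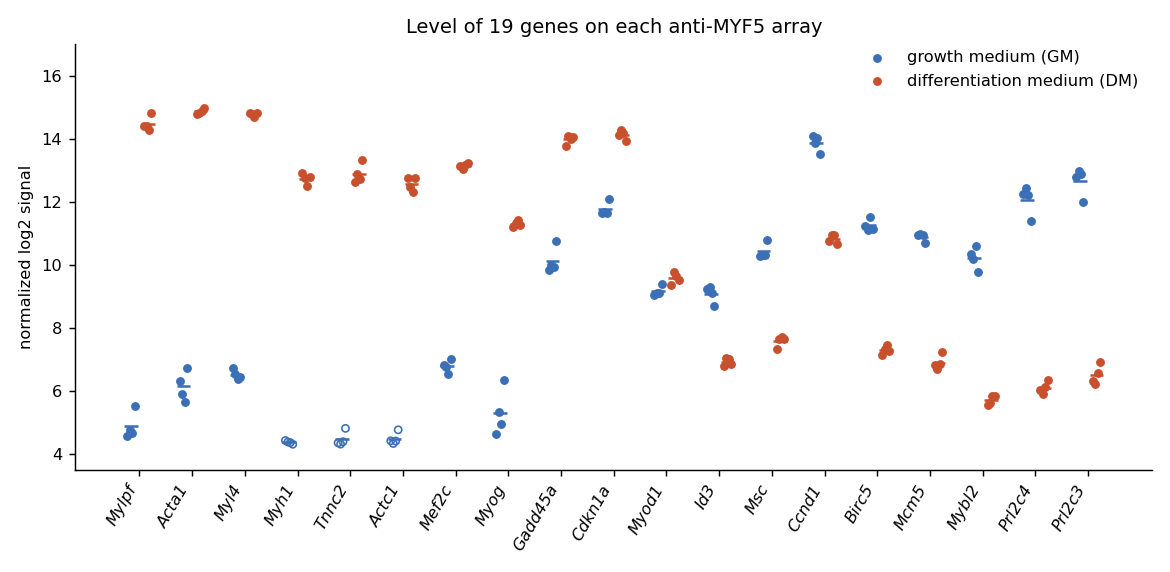
Normalized log2 signal (vertical axis) of 19 genes on each of the 8 anti-MYF5 arrays, blue for GM and red for DM, with a bar at the mean of 4 arrays and open points where the probe was detected on no array of that group. The contractile genes on the left, Mylpf to Actc1, had the largest rises shown, with fitted changes from 8.09 to 9.59. Ccnd1, cell cycle and proliferin genes on the right fell, and Myod1 differed by 0.42.

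Ccnd1 RNA in the MYF5 precipitate fell with differentiation. Its brightest probe had deposited signals of 18248, 17123, 13425 and 11488 on the 4 GM arrays and of 2153, 1895, 1710 and 1496 on the 4 DM arrays. The groups were far apart, with every GM array more than 5-fold above every DM array on this scale, and array 4 was the lowest of each medium. The normalized change was -3.04 ± 0.12 (SE; 8.21-fold lower in DM; adjusted p = 6.3e-15), and an exact permutation test of this probe gave p = 0.0286 (two-sided), the smallest that 4 against 4 arrays can give. The other two Ccnd1 probes moved by -2.95 ± 0.11 and -3.21 ± 0.25. In the IgG precipitates the brightest probe moved by -2.99, and the difference between the precipitates was -0.05 ± 0.18 (adjusted p = 0.92). The mean signal was 1814 ± 279 units (SD, n = 4) in DM, detected on all 4 arrays, and 15071 ± 3155 in GM.

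The other D-type cyclins split. Ccnd3, the cyclin D that persists in differentiated muscle, had levels of 12.07, 12.13, 12.01 and 12.60 in GM and 13.50, 13.65, 13.62 and 13.48 in DM. All 4 DM arrays lay above all 4 GM arrays, of which array 4 was the highest. It rose by 1.36 ± 0.12 (adjusted p = 3.2e-09), while Ccnd2 fell by 1.19 ± 0.30 (adjusted p = 0.0017). Of 13 measured G1 cyclin and kinase genes, 10 were tested, 8 were lower and only Ccnd3 was higher. The lower genes included the E-type cyclins Ccne2 (-2.48) and Ccne1 (-1.74), which drive entry into S phase, the cyclin D partner Cdk6 (-1.31) and the phosphatase Cdc25a (-1.18). Myc, the growth-promoting factor, changed by -0.28 with adjusted p = 0.069.

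Inhibitors of the cyclin-dependent kinases went both ways, with 2 of 5 tested higher and 3 lower. Cdkn1a encodes p21, which MYOD induces as myoblasts exit the cycle, and its levels were 11.65, 11.66, 11.63 and 12.10 in GM against 14.11, 14.26, 14.18 and 13.93 in DM. The groups did not overlap, and array 4 was the highest of GM and the lowest of DM. The change was 2.36 ± 0.13 (adjusted p = 1.3e-12). Rb1, the retinoblastoma pocket protein gene, rose by 1.85 ± 0.11, its relative Rbl2 (p130) rose by 0.34 ± 0.11, and Rbl1 (p107), the family member most abundant in dividing cells, fell by 1.52 ± 0.17. Gadd45a, a growth arrest gene, rose by 3.84 ± 0.24 and its relative Gadd45b by 2.43 ± 0.19. Over the list of CDK inhibitors, pocket proteins and related genes, 15 of 18 measured were tested, 9 (60%) were higher and 4 (26.7%) lower. The lower members beside Rbl1 were the kinase inhibitors Cdkn1b (-0.32), Cdkn2c (-0.55) and Cdkn2d (-0.50), while Cdkn1c rose by 0.69 and the other higher members were Gadd45, pocket protein and cyclin G genes. A second Cdkn2c probe was called higher (0.57), so its direction is uncertain.

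Among the myogenic factors, those that act late rose most. Myog, which encodes myogenin, the factor of terminal differentiation, had levels of 4.63, 5.32, 4.94 and 6.36 in GM and of 11.18, 11.31, 11.43 and 11.26 in DM. It was detected on 2 of 4 GM arrays, array 4 was the highest of them, and no GM array came near the DM range. The change was 5.98 ± 0.35 (adjusted p = 2.2e-12), and 6.33 without GM array 4. Mef2c, the MEF2 factor that works beside myogenin, went from 6.83, 6.77, 6.53 and 7.0 to 13.14, 13.03, 13.15 and 13.22, a change of 6.35 ± 0.12 (adjusted p = 1.9e-20) with no overlap. Myf6 (MRF4) rose by 2.01 ± 0.15. Myod1, which is already active in dividing myoblasts, rose by 0.42 ± 0.13 (adjusted p = 0.0075), with its lowest DM value (9.37) inside the GM range that ends at 9.38.

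The Myf5 transcript itself could not be compared. Its probe had deposited signals between 58.0 and 81.8 on the 8 arrays, was detected on 1 of them and was not tested. Of 30 measured genes in the list of myogenic factors and partners, 22 were tested, 12 were higher and 4 lower, and without the detection filter 11 were higher and 5 lower. The lower members were Tcf12 (-0.65), an E protein partner, Eya1, a cofactor of homeobox factors that was detected on no DM array and was at least 2.36-fold lower, the serum response factor gene Srf (-0.39) and its coactivator Mrtfb (-0.60). A second Tcf12 probe was called higher (0.31), so that gene has no settled direction. The chromatin factor Smyd1, a muscle-specific methyltransferase, was detected on no GM array and was at least 2.52-fold higher in DM.

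The antagonists of these factors went in both directions. Id proteins lack a DNA-binding region and hold E proteins away from MYOD. Id3 had levels of 9.22, 9.30, 9.11 and 8.68 in GM and 6.77, 7.05, 7.0 and 6.85 in DM. The groups did not overlap, and Id3 fell by 2.16 ± 0.15 (adjusted p = 5.6e-11). Its relatives Id1 (-1.91 ± 0.13), Id2 (-1.36 ± 0.16) and Id4 (-0.50 ± 0.14) were lower too. Msc (musculin), a repressor that occupies E-boxes in myoblasts, fell by 2.86 ± 0.17, and so did Twist2 (-2.54 ± 0.11). Of 22 measured inhibitors 19 were tested, 7 (36.8%) were lower and 8 (42.1%) higher, not far from the shares of all genes. The higher ones included Zeb1 (2.32), Bhlhe40 (2.02), Snai1 (1.66) and Hes6 (1.90), a HES family member reported to promote rather than block myogenesis. The median of the list (0.20) fell to -0.0078 with median scaling and to -0.019 with no scaling between arrays, so the list as a whole had no settled direction.

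The sarcomere genes included the highest fitted rises. Mylpf had levels of 4.57, 4.75, 4.65 and 5.53 in GM and of 14.39, 14.39, 14.28 and 14.80 in DM. It was detected only on array 4 among the GM arrays, while all DM arrays lay near the top of the scale. The fitted change was 9.59 ± 0.30 (adjusted p = 4.7e-17), set against GM values that were mostly at background. Acta1 went from 6.30, 5.89, 5.65 and 6.71 to 14.77, 14.82, 14.88 and 14.97, a change of 8.72 ± 0.21. The embryonic light chain Myl4 changed by 8.26 ± 0.09, and the fast light chain Myl1 by 7.70 ± 0.39. Tnnt1, slow troponin T, changed by 7.67 ± 0.47, or by 8.21 without GM array 4, its highest GM value (6.76) against 4.41 to 4.94 on the others.

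Several of these transcripts were detected on no GM array, so their folds are lower bounds set against the lowest detected signal of each array. Tnnc2, fast troponin C, was at least 256-fold higher in DM. The perinatal myosin heavy chain Myh8 was at least 245-fold higher, the fast heavy chain Myh1 at least 230-fold and the fetal actin Actc1 at least 206-fold. The measured levels of Myh1 were 4.42, 4.37, 4.36 and 4.30 in GM, none above background, and 12.89, 12.74, 12.50 and 12.78 in DM. Fxyd6, which regulates the sodium pump and belongs to no muscle list here, was at least 94.4-fold higher.

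The rise held across the parts of the muscle cell. All 13 thick filament genes tested of 16 measured were higher, with a median of 4.99, or 4.93 with the genes detected on no GM array set at their bound. Of 14 tested thin filament genes (16 measured) 12 were higher with a median of 6.46, or 6.03 with bounds. Z-disc, titin and costamere genes, which anchor the filaments, were higher for 22 of 23 tested (27 measured; median 3.02, or 2.93 with bounds), led by the titin-binding Ankrd23 (7.03) and Myoz2 (at least 91.4-fold). Excitation, calcium and synapse genes were higher for 22 of 24 tested (26 measured; median 2.16, or 1.78 with bounds), led by the calcium pump Atp2a1 (6.26) and the fetal acetylcholine receptor subunit Chrng (6.18). Genes of muscle metabolism and repair were higher for 23 of 24 tested (32 measured; median 2.41, or 2.05 with bounds), led by myoglobin, Mb (6.90), and the membrane repair gene Trim72 (at least 63.0-fold). Myoblast fusion and surface genes were more mixed: 11 of 16 tested (23 measured) were higher, such as the fusogen Mymk (at least 11.6-fold) and the adhesion molecule Ncam1 (3.98), and 3 were lower, among them Neo1 (-1.59) and Jam2 (-1.48). A muscle gene expressed only in DM had to pass the filter through the DM arrays, so the counts over tested genes describe those genes alone. Without the filter, 106 of 140 measured muscle genes were higher and 6 lower, and with it 103 of 114 were higher and 6 lower against 29.8% and 33.8% of all genes. The 103 and 6 stayed at 103 and 6 without both GM arrays numbered 4 and without the DM array numbered 4.

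**Figure D2:**
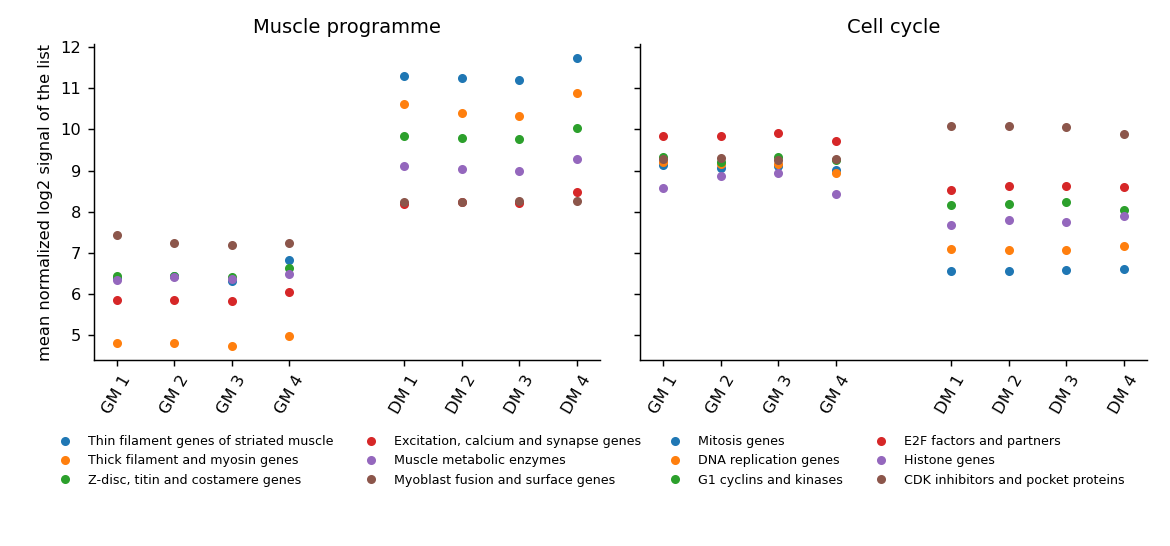
Mean normalized log2 signal of the tested genes of 12 lists on each anti-MYF5 array, with 6 muscle lists on the left and 6 cell cycle lists on the right. The groups do not overlap for any of the 12 lists, and on array 4 of each medium the thin and thick filament lists lay highest.

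A few sarcomere genes went the other way, and the probe mattered. Tpm3 encodes slow-muscle and cytoplasmic tropomyosins from one locus. Its brightest probe had levels of 11.03, 11.15, 11.05 and 10.99 in GM and 9.56, 9.56, 9.64 and 10.39 in DM. The groups did not overlap, although DM array 4 lay well above the other DM arrays, and the change was -1.27 ± 0.15. Another Tpm3 probe rose by 4.38 ± 0.14, and the probe annotation used here does not say which transcript each reads. Of 2435 genes with several tested probes, 54 (2.22%) had probes called in opposite directions, and 6 of those had a gap of at least 2. They were chosen after their values were seen and include Pdlim5, an enigma-family Z-disc protein (2.98 and -0.96), Asph, whose locus also encodes the junctional protein junctin (2.87 and -0.45), and Creb1, Adarb1 and Cyrib. Tmod4, a muscle tropomodulin, fell by 0.44 ± 0.18 (adjusted p = 0.036), a call lost under 13 of 21 alternative settings.

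**Figure D3:**
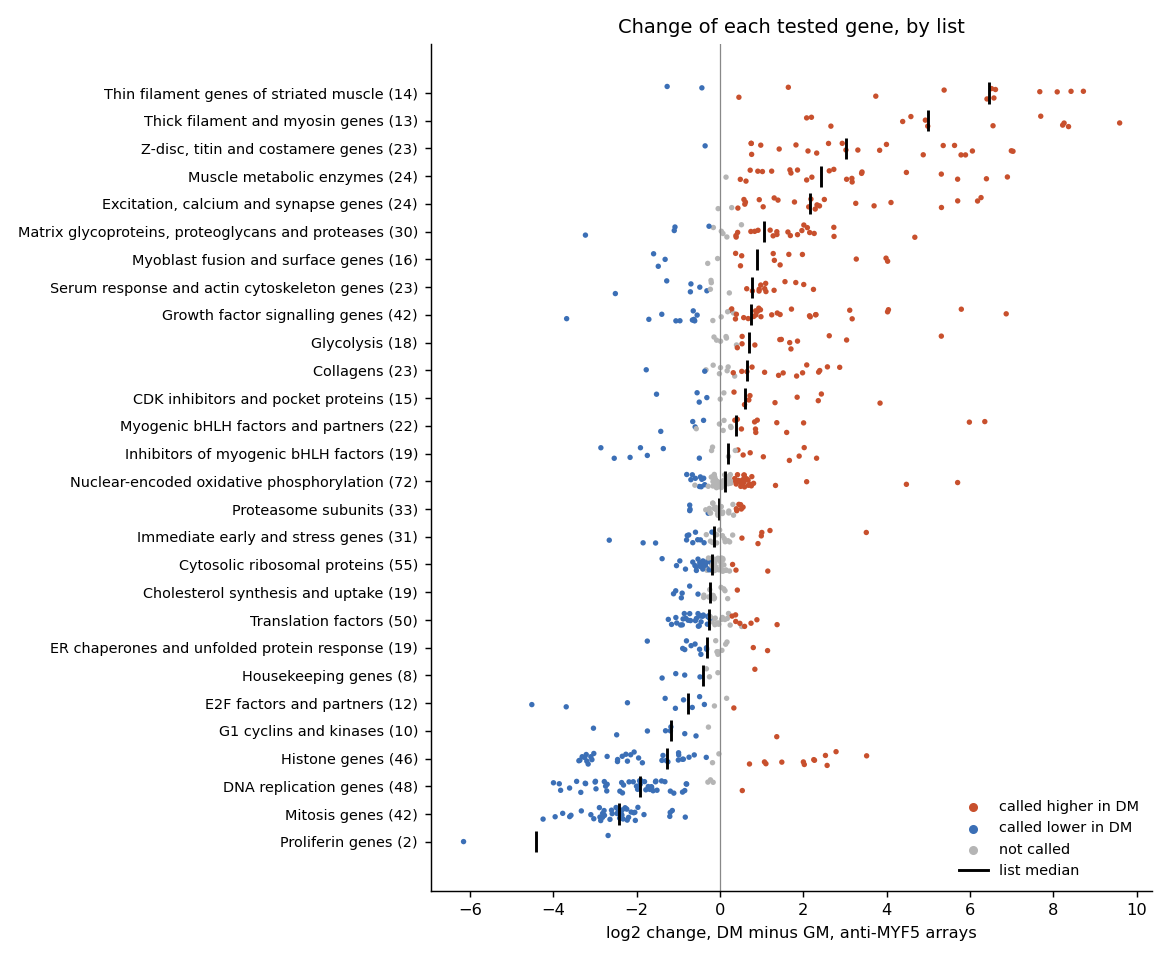
Change from GM to DM (horizontal axis, log2) of each tested gene in 28 lists, ordered by the list median (black bar), with red for genes called higher, blue for lower and grey for neither, and the number tested in brackets. The 5 lists of muscle structure, excitation and metabolism have the highest medians, from 2.16 to 6.46, and the proliferin, mitosis, DNA replication and histone lists the lowest.

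Cell cycle genes were lower almost throughout. All 42 tested mitosis genes (51 measured) were lower, with changes from -0.83 to -4.25 and a median of -2.43. Cdca3, a trigger of mitotic entry, had levels of 12.50, 12.59, 12.88 and 12.72 in GM and 8.12, 8.70, 8.45 and 8.43 in DM. The groups were more than 3 log2 units apart, and Cdca3 fell by 4.25 ± 0.13 (adjusted p = 2.3e-17). Birc5, which encodes survivin of the chromosomal passenger complex, fell by 3.96 ± 0.11, and Cdc20 fell by 3.61 ± 0.11. Gtse1, a microtubule-associated protein of G2 outside that list, fell by 4.06 ± 0.14.

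DNA replication genes followed, with 44 of 48 tested (52 measured) lower, 1 higher and a median of -1.92. Mcm5, a subunit of the replicative helicase, had levels of 10.96, 10.97, 10.96 and 10.69 in GM and 6.82, 6.69, 6.84 and 7.24 in DM. The groups did not overlap, array 4 was the lowest of GM and the highest of DM, and Mcm5 fell by 4.00 ± 0.14 (adjusted p = 3.2e-16), more than with IgG (-3.03; difference -0.97 ± 0.19, adjusted p = 0.0065). Mcm10, another gene of that list, fell by 3.86 ± 0.19. The sole higher member was Orc3 (0.53 ± 0.12), a subunit of the origin recognition complex. Among the E2F factors and partners, 9 of 12 tested were lower, led by Mybl2 (B-Myb), with levels of 10.34, 10.19, 10.59 and 9.77 in GM and 5.54, 5.63, 5.84 and 5.82 in DM. Mybl2 fell by 4.52 ± 0.17 with no overlap. Next came Foxm1 (-3.69), which acts with it on mitotic genes, and E2f1 (-2.22), while E2f2 rose by 0.33, a call lost under 6 of 21 alternatives. Counts for mitosis, replication and E2F genes lay above the 33.8% of all genes called lower and moved by at most 1 gene without both GM arrays numbered 4 or without the DM array numbered 4.

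Histone genes went both ways. Of 46 tested (59 measured), 32 (69.6%) were lower and 12 (26.1%) higher, against 33.8% and 29.8% of all genes, with a median of -1.27. H2ac7 had levels of 11.39, 11.68, 11.76 and 11.66 in GM and 8.02, 8.05, 8.15 and 8.71 in DM. It fell by 3.39 ± 0.15, and H2ac15 fell by 3.36 ± 0.16. H2bc4, an H2B gene, had levels of 8.26, 9.03, 8.33 and 8.71 in GM and 12.13, 12.09, 11.91 and 12.27 in DM, a rise of 3.52 ± 0.14, and H2bc11 rose by 2.78 ± 0.17. Neither pair of groups overlapped. The labelling here primed on poly(A), replication-dependent histone mRNAs end mostly in a stem-loop instead, and near-identical histone copies can share a probe, so these values are uncertain as to gene and as to level.

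The share of promoter windows with a motif differed between these groups. CAGCTG was found in 42.3% of 97 windows of the muscle genes called higher, against 15.4% of windows of all tested genes and 16.3% of all 32851 windows. TTTGAA was found in 75.0% of 36 windows of tested mitosis genes, against 11.5% and 17.9%, and in 37.2% of 43 histone windows. CCAAT was in 69.4% of mitosis windows and 81.4% of histone windows, against 37.4% of all windows. An E2F motif, as TTTCCCGC or TTTGGCGC, was in 10 of 54 windows of DNA replication genes (18.5%), so Mcm5 belongs to the minority that hold it, against 2.58% of tested and 1.56% of all windows. Both strands were searched, CAGCTG lies inside the wider E-box CANNTG (83.5% of the muscle windows, 72.3% of all), and a gene with several starts gives several windows. Over all genes at least 2-fold higher CAGCTG was in 23.3% of windows, and over those at least 2-fold lower in 13.9%. These shares describe letters and not occupied sites.

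**Figure D4:**
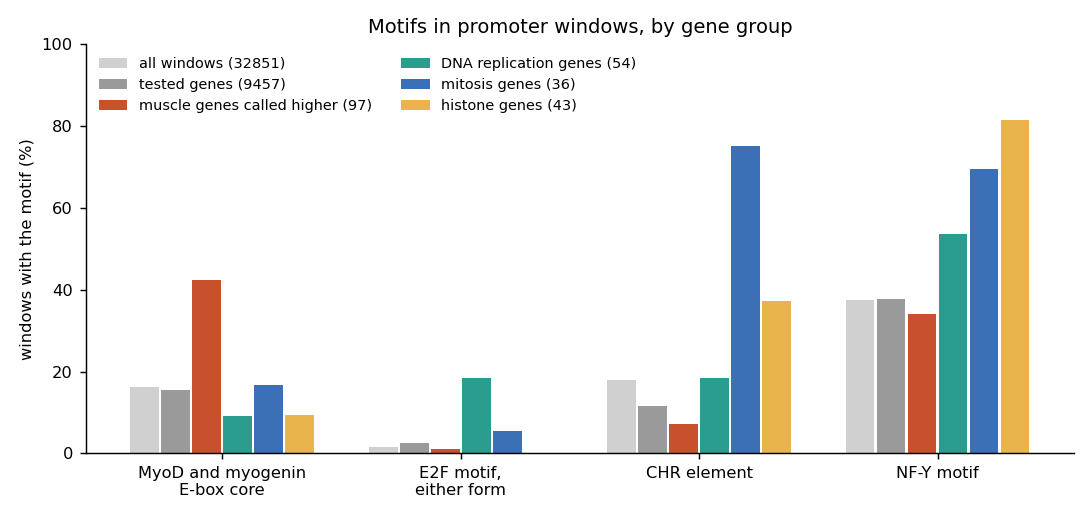
Share of promoter windows (vertical axis, percent) that hold each of 4 motifs, for all windows, tested genes and 4 gene groups, with the number of windows in brackets. The CHR element stands at 75.0% in mitosis genes, the E-box core at 42.3% in muscle genes called higher and the NF-Y motif, the CCAAT box, at 81.4% in histone genes.

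The gene with the largest fall of the 8934 was a proliferin, one of the prolactin-related growth factors that serum induces in cultured cells. Prl2c3 had levels of 12.78, 12.97, 12.87 and 11.98 in GM and 6.31, 6.21, 6.55 and 6.91 in DM. Array 4 was the lowest of GM and the highest of DM, and the groups were 5 units apart at their nearest. Prl2c3 fell by 6.15 ± 0.26 (adjusted p = 9.4e-15), Prl2c4 fell by 5.96 ± 0.26, and Prl2c1, detected on no DM array, was at least 4.67-fold lower. These genes are near-identical copies, so the probes may share transcripts. The transporter gene Slco4a1 was detected on no DM array and was at least 51.2-fold lower. Igsf11, an adhesion molecule of the immunoglobulin superfamily, fell by 4.64 ± 0.16, and Chtf18, a clamp loader subunit of replication forks, fell by 4.29 ± 0.13.

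Insulin-like growth factor genes gave the largest changes among the growth factor signalling genes. Igf2, an autocrine factor of differentiating myoblasts, had levels of 4.53, 4.76, 4.55 and 5.70 in GM, detected on 1 array, and of 11.87, 11.75, 11.79 and 11.60 in DM, a change of 6.87 ± 0.32 (adjusted p = 5.3e-14). Its binding proteins moved in both directions, with Igfbp4 up by 5.79 ± 0.16, Igfbp2 down (-3.68 ± 0.15) and Igfbp6 down (-1.71 ± 0.14). Over the whole signalling list of 50 measured genes, 42 were tested, 27 (64.3%) rose and 11 (26.2%) fell, against 29.8% and 33.8% of all genes. Matrix genes were higher more often than lower, 21 (70%) against 4 (13.3%) of 30 tested glycoproteins, proteoglycans and proteases and 14 (60.9%) against 2 (8.70%) of 23 tested collagen genes. Dcn (decorin) rose by 4.68 ± 0.43, or 5.21 without GM array 4, where its level was 7.50 against 4.92 to 5.72 on the others. Thbs1 (thrombospondin) rose by 2.74 and Col6a1 by 2.87, while Plaur, the urokinase receptor, fell by 3.23 and Col18a1 fell by 1.77.

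Actin cytoskeleton genes went both ways. Of 23 tested genes of serum response and actin, 13 (56.5%) were higher and 6 (26.1%) lower, with the nonmuscle myosin heavy chains Myh9 (2.24) and Myh10 (2.01) up and cofilin, Cfl1 (-2.51), and profilin, Pfn1 (-1.28), down. Among 31 tested immediate early and stress genes, 12 (38.7%) fell, close to the 33.8% of all genes, and 6 (19.4%) rose, with Fosl1 (-2.66) and the MAP kinase phosphatase Dusp4 (-1.85) down and Junb (1.20) up. Txnip, the thioredoxin inhibitor, rose by 3.51 ± 0.33, or 3.88 without GM array 4.

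Lists of general metabolism and protein synthesis differed from each other. In glycolysis 12 of 18 tested genes (66.7%) rose and 0 fell, with 6 not called and a median of 0.68, led by the muscle isoforms Pgam2 (at least 29.5-fold) and Pfkm (3.04). Of 72 tested nuclear genes of oxidative phosphorylation, 25 (34.7%) rose, close to the 29.8% of all genes, and 10 (13.9%) fell, with a median of 0.12, but when the arrays were not scaled 8 rose and 9 fell, with a median of -0.08. Its 2 highest members were the muscle isoforms Cox6a2 (at least 37.3-fold) and Cox8b (at least 16.2-fold), while Cox6a1, the ubiquitous counterpart of the former, fell by 0.80. Among 55 ribosomal protein genes tested, 24 (43.6%) fell and 3 (5.45%) rose, against 33.8% and 29.8% of all genes, with a median of -0.19, and under cyclic loess 15 fell and 7 rose. Rplp0 fell by 1.39 and Rpl13a fell by 1.04, while Rpl22 rose by 1.15. Among 50 translation factors tested, 26 (52.0%) fell and 8 (16%) rose, with Eif5a (-1.24) and Eif4h (-1.16) down and Eif4a2 (1.37) and Eif4e2 (0.89) up. Among 33 proteasome subunits tested, 6 (18.2%) rose, such as Psmd4 (0.55), and 4 (12.1%) fell, such as Psmb2 (-0.73), and with median scaling 0 rose and 7 fell.

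Cholesterol synthesis and endoplasmic reticulum genes had medians of -0.25 and -0.32. In the cholesterol list 6 of 19 tested genes fell (31.6%, near the 33.8% of all genes) and 1 rose (5.26%), with Stard4 (-1.12) and Lss (-1.06) down. Among 19 chaperones and unfolded protein response genes of the endoplasmic reticulum, 10 (52.6%) fell and 2 (10.5%) rose, with Creld2 (-1.74) and Edem1 (-0.90) down and Herpud1 (1.14) and Dnajb9 (0.80) up. Of 8 tested reference genes, Gapdh rose by 0.84, 4 were lower, among them Gusb (-1.06), and 3 were not called, so no reference gene set fixes an absolute scale and changes are relative between RNAs. Xist, the one long noncoding RNA of its list with a probe analysed here, fell by 1.64 ± 0.15.

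The same change was measured in the IgG precipitates. Across the 13086 tested probes the DM minus GM change in MYF5 arrays correlated with that in IgG arrays at 0.949, given as a description over probes that share arrays and extracts of the same cell states. Of the 8274 probes called with MYF5, 6670 were called the same way with IgG, which is 80.6% of the MYF5 calls and 80.2% of the 8320 IgG calls. Of the 2737 probes with a called change of at least 2-fold in MYF5, 2709 (99.0%) were called the same way in IgG. Calls ran in opposite directions for 38 probes.

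The difference between the precipitates was tested directly as the MYF5 change minus the IgG change. It was called for 714 probes (5.46%), 293 more positive and 421 more negative in MYF5, and for 492 genes (5.51%). Of the 714 probes, 382 changed the same way in both precipitates, with the larger change in MYF5 for 143 and in IgG for 239. A further 148 were called in MYF5 alone and 146 in IgG alone. The count was not stable to single libraries: it was 381 without DM array 2, 414 without DM array 3 and 438 without GM array 1 of the MYF5 group, and 1395 without both GM arrays numbered 4.

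Differences among muscle genes were called more often where the gene was not detected in GM. Of the 114 tested muscle genes, 38 (33.3%) had a called difference, but 28 of the 38 came from the 45 genes detected on no GM array with MYF5. That is 62.2% of the 45, and all 28 were more negative with MYF5. Those 45 passed the detection filter through DM alone, and their GM values with MYF5 lie on a background floor. Their difference of changes is a DM gap between precipitates together with any GM gap. Among the 45, Actc1 had GM means of 5.02 with IgG and 4.48 with MYF5. All genes detected on no GM array, these 45 among them, held 99 called differences in 361 (27.4%), 74 more negative and 25 more positive. The 45 and the 361 were alike in detection but were not matched for level in DM. The 62.2% and 27.4% therefore carry no conclusion about muscle genes. Of the 50 muscle genes detected on all 8 MYF5 arrays, 6 (12%) had a called difference, 4 more positive and 2 more negative, against 341 of 7527 genes (4.53%) with the same detection. Myl2, the slow and cardiac regulatory light chain, is one of the genes at background in GM, with 4.25, 4.38, 4.32 and 4.27, and had levels of 8.72, 8.68, 8.71 and 9.44 in DM, of which array 4 was the highest. Its DM mean was 8.89 with MYF5 and 10.83 with IgG. The DM means of Myh6, a cardiac heavy chain, were 6.53 and 8.23, those of Pgam2 were 9.77 and 11.17, and those of Cox6a2 were 10.11 and 11.70, again with no GM array above background with MYF5. Myl4 and Acta1 were detected on all 8 arrays and had a larger change with MYF5. Myl4 rose by 8.26 in MYF5 and 6.72 in IgG (difference 1.53 ± 0.13, adjusted p = 1.9e-06), and Acta1 by 8.72 and 7.58 (difference 1.14 ± 0.29, adjusted p = 0.026). Both had nearly equal DM means in the precipitates, 14.77 and 14.66 for Myl4 and 14.86 and 14.83 for Acta1, and lower GM means with MYF5, 6.52 against 7.93 and 6.14 against 7.25. The Acta1 difference was lost under 8 of 20 alternatives.

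**Figure D5:**
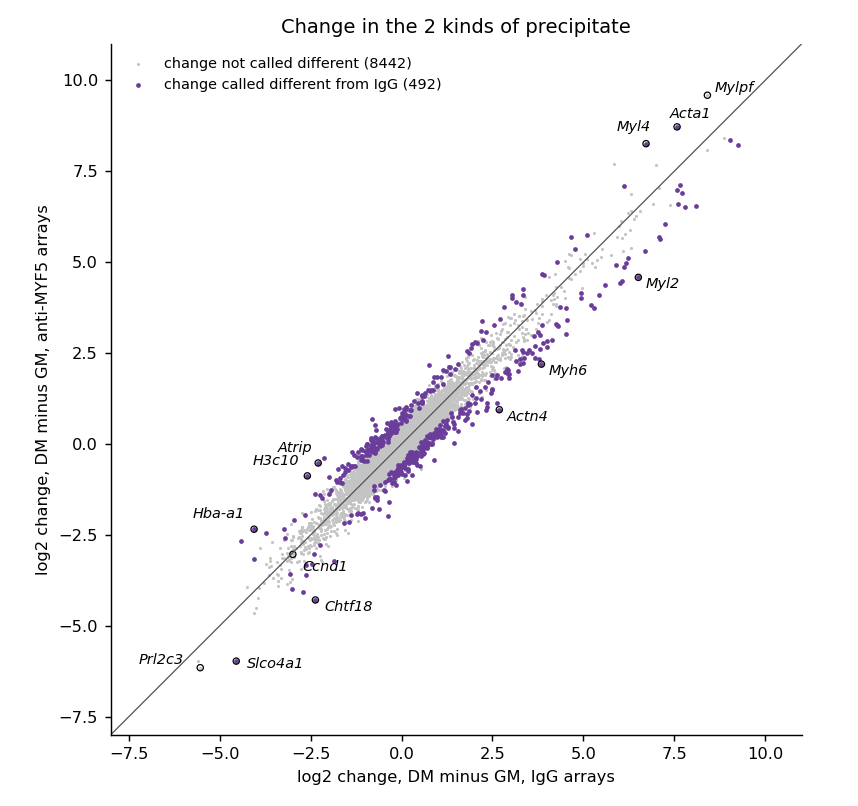
Change from GM to DM in log2 units with IgG (horizontal axis) and with anti-MYF5 (vertical axis) for each of 8934 genes, with a diagonal at equal change and purple points where the difference was called (492 genes). Most genes lie along the diagonal, Ccnd1 on it, Myl2, Myh6, Actn4 and Chtf18 below it and Atrip and H3c10 above it.

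Outside the muscle lists, the most negative called differences by the naming rule were those of Chtf18, Actn4 and Rfc1. Rfc1, part of the complex that loads the replication clamp, had levels of 11.50, 11.37, 11.37 and 11.30 in GM and 9.44, 9.63, 9.45 and 9.11 in DM with MYF5, and it fell by 1.98 ± 0.13. With IgG its mean went from 9.23 to 8.87, against 11.38 to 9.41 with MYF5, so the 2 precipitates were further apart in GM than in DM. The difference of -1.61 ± 0.18 had adjusted p = 2.7e-05. Chtf18 had GM means of 9.21 with MYF5 and 7.83 with IgG, and it fell further with MYF5 (difference -1.92 ± 0.18). Actn4, a nonmuscle actinin, rose by 0.94 with MYF5 and 2.69 with IgG (difference -1.75 ± 0.27).

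The genes with the 5 most positive called differences by that rule all had a lower GM level with MYF5 than with IgG. Atrip, the partner of the checkpoint kinase ATR, had levels of 7.09, 7.15, 7.10 and 7.29 in GM and 6.66, 6.64, 6.45 and 6.78 in DM, and its GM mean was 7.16 with MYF5 and 9.44 with IgG. It changed by -0.52 with MYF5 and by -2.29 with IgG (difference 1.77 ± 0.23, adjusted p = 7.8e-05). Blm, the Bloom syndrome helicase, had GM means of 8.83 and 11.02 (difference 1.75 ± 0.20), and Smarcal1, an annealing helicase, of 7.76 and 10.61 (difference 1.73 ± 0.21). H3c10, a histone gene detected on no DM array with MYF5, had GM means of 5.21 and 7.13 (difference 1.71 ± 0.21). Hba-a1, an alpha-globin gene with a near-identical copy, had GM means of 6.84 and 9.14 and was detected on no DM array with MYF5 (difference 1.71 ± 0.36). Over all tested genes a difference was called for 492 of 8934 (5.51%). Of the lists outside muscle, oxidative phosphorylation held 14 called differences in 72 genes (11 more positive), ribosomal proteins 8 in 55 (all more positive), histones 10 in 46 (7 more positive) and DNA replication 5 in 48 (all more negative). The G1 cyclin, CDK inhibitor, proteasome and cholesterol lists held 0, with 10, 15, 33 and 19 genes tested. At 5.51%, lists of this size would hold few called differences, so these counts of 0 say nothing about the lists.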

How the data were processed

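Anti-MYF5 and IgG precipitates gave RNA for 16 Illumina bead arrays, 4 per group, grouped by the sample titles. Labelled RNA was made with oligo-dT priming, per the labels' protocols. The deposited table lists the intensity of each probe on each array with its detection p-value, per the file headers, not normalized between arrays. GenomeStudio 2011.1 is the software named, per the submitters' processing notes. The deposited series values are a score, each array's log10 signal as a z-score (to within 5e-10), with array medians from -0.55 to -0.51.

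Intensities were background-corrected by normexp with controls inferred from the detection p-values (offset 16), quantile-normalized and log2-transformed (limma 3.58.1, R 4.3.3). A fit of 4 group means over 16 arrays (12 residual degrees of freedom, eBayes with intensity trend) gave the DM minus GM change in MYF5 and its difference from IgG, with Benjamini-Hochberg adjustment over 13086 probes. All adjusted p-values come from it. On simulated data for these 13086 probes, the DM over GM test called 92 of 100 changes of 1 log2 unit and 50 of 100 of 0.5, with 4 false calls. Only those probes were given a change, whereas 63.2% of probes were called in the data. The adjustment depends on that share, so the simulated recovery is not the recovery in this comparison.

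GEO's platform annotation gave symbols, brought up to date by Entrez identifier (23962 probes) or accession (9) or kept (7). It gave 1719 probes none and 0 several. Named genes are the 10 largest called changes each way that were detected on all 4 arrays of a MYF5 group without overlap, up to 2 called members per list and direction, the 5 largest called differences from IgG each way, and any member of the myogenic factor, inhibitor, G1 cyclin and CDK inhibitor lists. Exceptions are stated. The members and lists were chosen with earlier results of these data known. RefSeq promoter windows matched 7299 tested genes. Alternatives changed the background correction, scaling, detection filter, trend, block and the arrays fitted. Chip and slide are not given in the sources used here.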

Additional observations from a re-analysis of the deposited data

Results flagged for a closer look

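Among the 114 genes chosen by rule, 228 groups of 4 arrays were examined for 1 array far from the other 3, by the gap to the nearest array as a share of the group's range, against Dixon's 95% critical value. This picked out 16 values, and chance alone gives about 1 in 20 groups. GM array 4 accounted for 8 of the 16 and DM array 4 for 5.

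GM array 4 was far above the other GM arrays for Chrng (6.84 against at most 5.44, gap share 0.967), Mymk (4.54 against 4.35, 0.936), Txnip (9.29 against 7.85, 0.920), Msc (10.80 against 10.32, 0.920), Rpl22 (11.94 against 11.16, 0.851), Tnnc2 (4.81 against 4.39, 0.846) and Gadd45a (10.75 against 9.99, 0.831). It was far below them for Mcm5 (10.69 against at least 10.96, 0.942). Mymk and Tnnc2 were detected on no GM array. DM array 4 was far above the other DM arrays for Actn4 (10.39 against 9.51, 0.961), Myl2 (9.44 against 8.72, 0.951), Tpm3 (10.39 against 9.64, 0.902), Psmc3 (10.57 against 9.97, 0.883) and Pfn1 (10.30 against 9.81, 0.8294). The other 3 values were Xist, highest on GM array 1 (6.67 against 6.29, 0.960), Psmd5, lowest on GM array 1 (6.84 against 7.34, 0.856), and Twist2, highest on DM array 2 (8.67 against 8.42, 0.922).

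The naming rule put the 5 largest called differences from IgG each way among the 114 genes. The count of called differences among the 114 is therefore partly set by that rule. Over all tested genes the difference was called for 492 of 8934 (5.51%). For 30 of the 114 genes the DM minus GM change differed between the MYF5 and IgG precipitates by the test of that difference (limma adjusted p under 0.05). It was more negative with MYF5 for muscle genes Myl2 (-1.93), Myh6 (-1.65), Cox8b (-1.58), Cox6a2 (-1.38), Pgam2 (-1.37), Tmod4 (-1.32), Myh8 (-1.02), Mymk (-0.91), Mb (-0.82), Myh1 (-0.66) and Myoz2 (-0.58). Of these, all except Tmod4 and Mb were detected on no GM array with MYF5, and Mb on 1, so their values rest on a background level in GM. It was more negative too for the cytoskeletal genes Actn4 (-1.75) and Myh10 (-1.19), the replication and G2 genes Chtf18 (-1.92), Rfc1 (-1.61), Gtse1 (-1.35) and Mcm5 (-0.97), and for Slco4a1 (-1.43), Col1a1 (-0.93), Fxyd6 (-0.55), Tcf12 (-0.55) and Eif4h (-0.41). It was more positive with MYF5 for Atrip (1.77), Blm (1.75), Smarcal1 (1.73), H3c10 (1.71), Hba-a1 (1.71), Myl4 (1.53), Acta1 (1.14) and Ndufa4 (1.06), the last encoding a small subunit of the respiratory chain.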

How the results depend on the processing

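The 114 genes chosen by rule were picked among called changes or differences in these same data. How many kept their call therefore says little about other genes. Of their 2394 values over 21 alternatives, 2342 kept direction and call, 52 lost the call and 0 reversed. The 52 belonged to 10 genes, Tmod4, Hspb1, Smarcal1, E2f2, Pcolce, Rpl24, Dnajb9, Ebp, Psmc3 and Psmd4. Leaving out 1 array of the MYF5 groups at a time gave 3523 to 3751 probes higher in DM, 4212 to 4455 lower, 1373 to 1477 at least 2-fold higher and 1296 to 1432 at least 2-fold lower. Without background correction the 2-fold counts were 908 and 767, and none were computed for z-scores, whose unit is not a fold. The share of calls that were higher was 45.2%, 38.3% with median scaling, 37.7% with no scaling and 50.8% with cyclic loess. The median change of all probes was -0.079, -0.162, -0.173 and -0.007 in that order, so small changes are relative to the scaling. Of 638 list medians, 557 stayed within the spread of their arrays and 79 were counted as moved. The 79 include the z-score median of every list, counted so whatever its value, because its unit is not a fold. A reversal was counted only where the main median was larger than that spread. This gave 2, both for inhibitors of myogenic factors (0.20, then -0.0078 with median scaling and -0.019 with no scaling). Smaller medians also changed sign without being counted as reversed. Oxidative phosphorylation, for example, went from 0.12 to -0.072 with median scaling and -0.083 with no scaling.

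The count of probes that differed from IgG was the least stable. It was 714, against 1412 on the deposited z-scores, 1106 with no scaling, 1395 without both GM arrays numbered 4 (chosen after seeing the data) and 381 to 1023 with 1 array left out. Of 600 values for the 30 genes with a called difference, 540 kept the call, 59 lost it and 1 reversed, Eif4h on z-scores (0.092, adjusted p = 0.68, against -0.41). The IgG comparison has no value in the fit of the 8 MYF5 arrays alone. With replicate number as a block, 3883 probes were higher, 4709 lower and 1094 differed from IgG. Deviations of same-numbered GM and DM arrays from their group means correlated at 0.295, -0.124, 0.088 and 0.068. Same-numbered IgG and MYF5 arrays correlated at 0.339, 0.299, 0.016 and 0.615 in GM and at 0.382, 0.431, 0.017 and 0.264 in DM, above 0.1 for all numbers except 3. The numbers were not taken as pairs in the main fit. For GM against DM the correlations were low, but most IgG and MYF5 arrays of a number deviated together. The fit without the block treats those arrays as independent. Its 714 differences from IgG therefore leave out a possible pairing of IgG with MYF5 arrays within a medium. The block ties arrays of a number across both media, so the 1094 differences with the block do not give that pairing either. A fit with pairs within each medium was not run. The number of arrays limits what can be seen, and the causes of these shifts were not tested. The simulated recovery of 50 in 100 changes of 0.5 log2 units came from data with far fewer changed probes. It does not give the share of such changes called here.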
